A study of Homo sapiens with 4 samples.

Results

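The genes of TGF-beta, BMP and activin signalling were followed in T47D cells, a line of human breast cancer cells with abundant progesterone receptor (PR). A list of 51 genes was matched by symbol, and all 51 were found among the 23287 gene symbols of the transcript tables. It holds 12 ligands, 13 receptors and co-receptors, 8 SMADs, 10 inhibitors, 4 latent TGF-beta binding proteins and 4 *ID* genes, which are BMP targets. The RNA-seq experiment compared cells that received 10 nM R5020, a synthetic progestin, for 3 h with cells that received the vehicle, ethanol (EtOH), for 3 h. PR binding sites came from 1 ChIP-seq library of cells treated with 10 nM R5020 for 1 h, and the input DNA entered only as the control used by the authors when they called the sites. Cells of all groups were kept in charcoal-stripped serum before treatment, for longer in the ChIP-seq than in the RNA-seq experiment. Every library came from this 1 cell line. There was 1 RNA-seq library per condition, so no difference below has a replicate check, each compares these libraries only, and no p-value is given.

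Ligands of this family are secreted dimers that bring together type I and type II receptor kinases. TGF-beta and activin receptors phosphorylate SMAD2 and SMAD3, BMP receptors phosphorylate SMAD1, SMAD5 and SMAD9, and both groups enter the nucleus with SMAD4. The inhibitory SMAD6 and SMAD7, the pseudoreceptor BAMBI and the *ID* genes are well-known targets of the pathway, so their transcripts are often read as a measure of its output. In the mammary gland TGF-beta is known above all as a restraint on epithelial growth.

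Gene levels are FPKM, fragments scaled to transcript length and library size, added up over the RefSeq transcripts of the gene. Changes are log2((R5020 FPKM + 1) / (EtOH FPKM + 1)), which understates the change of weakly expressed genes. A gene was retained with an FPKM of 1 or more in at least 1 library and called higher or lower at 1.5-fold on that scale. By this rule 11018 genes were retained, among them 32 of the 51 members. The files gave coverage equivalent to 35151493 reads in EtOH-treated and 36203604 reads in R5020-treated cells, and the median over the retained members and both libraries was 1326 such reads, with a lowest value of 158. The intervals beside fold changes are 95% exact binomial intervals of the FPKM ratio from these approximate reads, and cover counting error only. The cultures carried luminal epithelial markers. All 6 of the luminal markers with estimates in both libraries had an FPKM of 1 or more, with a sum of 1028 in EtOH-treated and 700.0 in R5020-treated cells, while *KRT8* and *KRT18* had failed estimates in EtOH-treated cells. Of the markers of other cells, 1 of 4 basal genes (sum 2.09 against 1.72), 1 of 5 fibroblast genes (sum 5.48 against 3.85), 0 of 3 endothelial genes (sum 0.238 against 0.326) and 0 of 3 blood genes (sum 0.617 against 0.553) had an FPKM of 1 or more. *COL1A2*, *COL3A1*, *CDH5* and *HBB* were at 0 in both libraries. The part of these marker differences in the values below was not tested. Fewer cells of a type and less RNA per cell cannot be told apart in such libraries.

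Among the retained members, 8 were called lower in R5020-treated cells and 2 were called higher. The lower members were *TGFB2*, *TGFB3*, *BMP4*, *SMAD6*, *BAMBI*, *ID1*, *ID2* and *ID3*, or 25% of the 32 retained members, where 4.14% of all retained genes were called lower. The higher members, *ACVR1* and *TGIF1*, were 6.25% of the retained members, where the share of all retained genes called higher was 7.67%. The median change of the retained members was −0.15, with 13 above 0 and 19 below 0. Over all retained genes the median was 0.01 and 49.1% lay below 0. At 2-fold, *SMAD6* and *ID2* were called lower, beside 1.31% of all retained genes, and *ACVR1* was called higher, beside 3.43%.

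**Figure D1:**
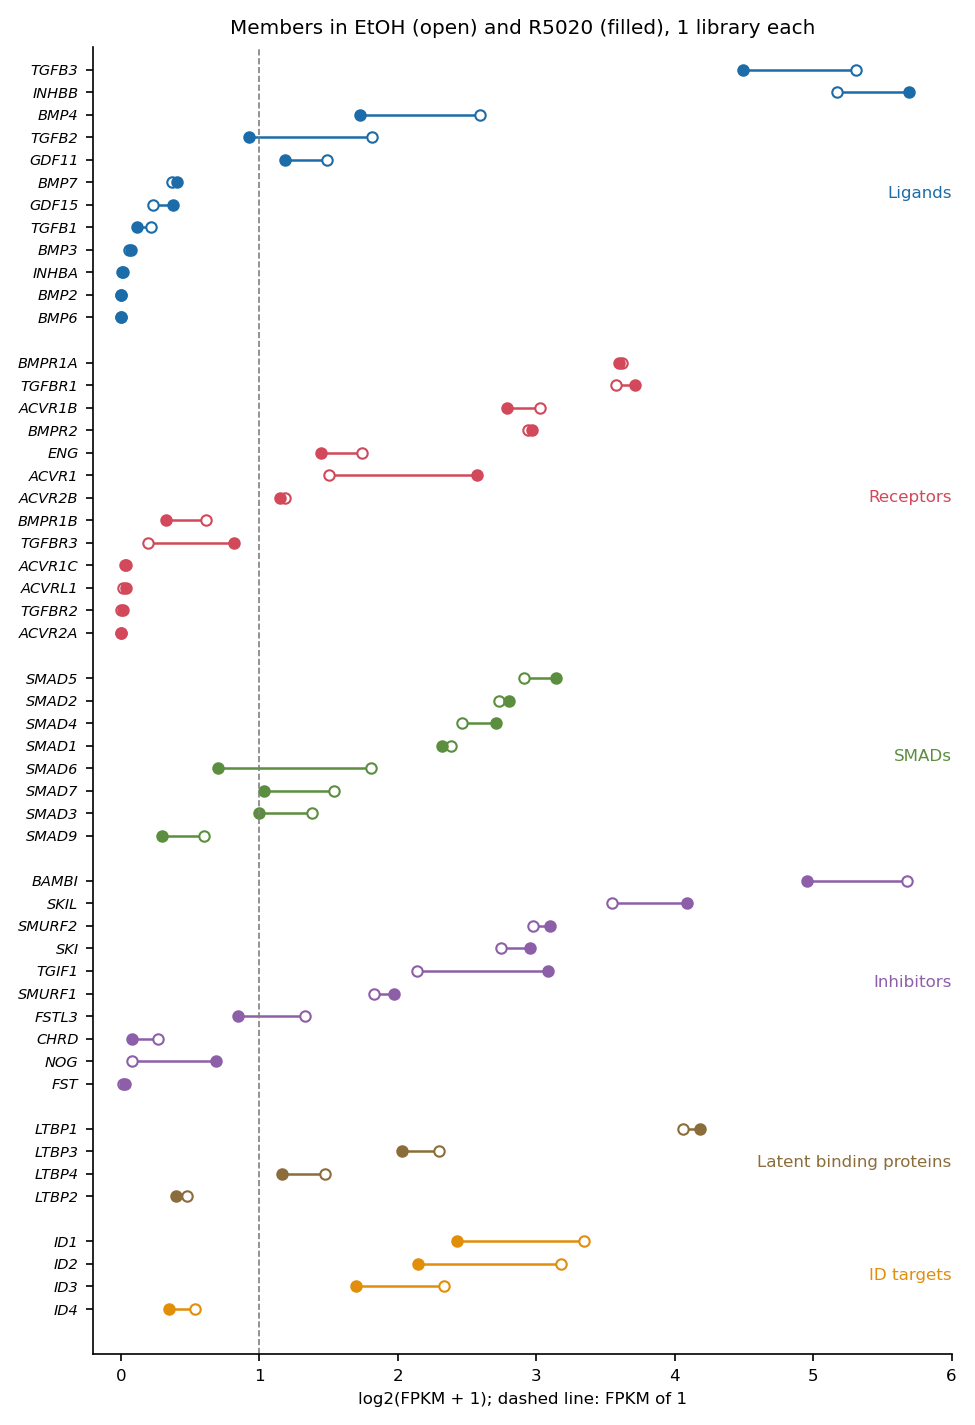
Each row is 1 gene and the x axis is log2(FPKM + 1), with open circles for EtOH and filled circles for R5020 (1 library each). Genes are grouped by role and ordered by their EtOH level, and 32 of 51 have a circle at or beyond the dashed line at an FPKM of 1. The *ID* genes and the TGF-beta and BMP ligands above that line lie further left in R5020, and *INHBB*, *ACVR1*, *SKIL* and *TGIF1* further right.

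Of the 12 ligands 5 were retained, and these differed in direction. *TGFB3*, 1 of the 3 TGF-beta ligands, had an FPKM of 38.6 in EtOH-treated and 21.5 in R5020-treated cells, which was 1.79-fold lower (1.74 to 1.85). *TGFB2* had an FPKM of 2.52 in EtOH-treated and 0.896 in R5020-treated cells, 2.81-fold lower (2.53 to 3.13). *TGFB1*, the most studied ligand of the family, was barely present, with FPKM of 0.161 and 0.0832 from 30 and 18 approximate reads. The TGF-beta transcript in these cells was therefore mostly that of *TGFB3*, and the 3 genes together had an FPKM of 41.3 in EtOH-treated and 22.5 in R5020-treated cells.

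*BMP4* was the only 1 of the 5 BMP ligands among the members to be retained. It had an FPKM of 5.05 in EtOH-treated and 2.31 in R5020-treated cells, 2.19-fold lower (1.93 to 2.49). Outside the members *BMP8A* was retained too, with FPKM of 1.24 and 0.972 and no call. *BMP7* had FPKM of 0.293 and 0.322, *BMP3* had 0.0407 and 0.0522, and *BMP2* and *BMP6* were listed at 0 in both libraries. *INHBB* encodes the activin beta B subunit and went the other way. Its FPKM was 35.0 in EtOH-treated and 50.6 in R5020-treated cells, 1.45-fold higher (1.41 to 1.48), which left it just short of the 1.5-fold call. *INHBA*, for the beta A subunit, had 1 and 3 approximate reads. The ligand sum was 83.6 in EtOH-treated and 77.4 in R5020-treated cells, and within it the share of *INHBB* was 41.8% in the former and 65.4% in the latter. Without *INHBB* the log2 ratio of the sums was −0.86, compared with −0.11 over all 12 ligands. *GDF11*, a ligand of the activin type II receptors, had FPKM of 1.81 and 1.27. *GDF15*, a distant family member, stayed below the filter with 0.174 and 0.297.

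**Figure D2:**
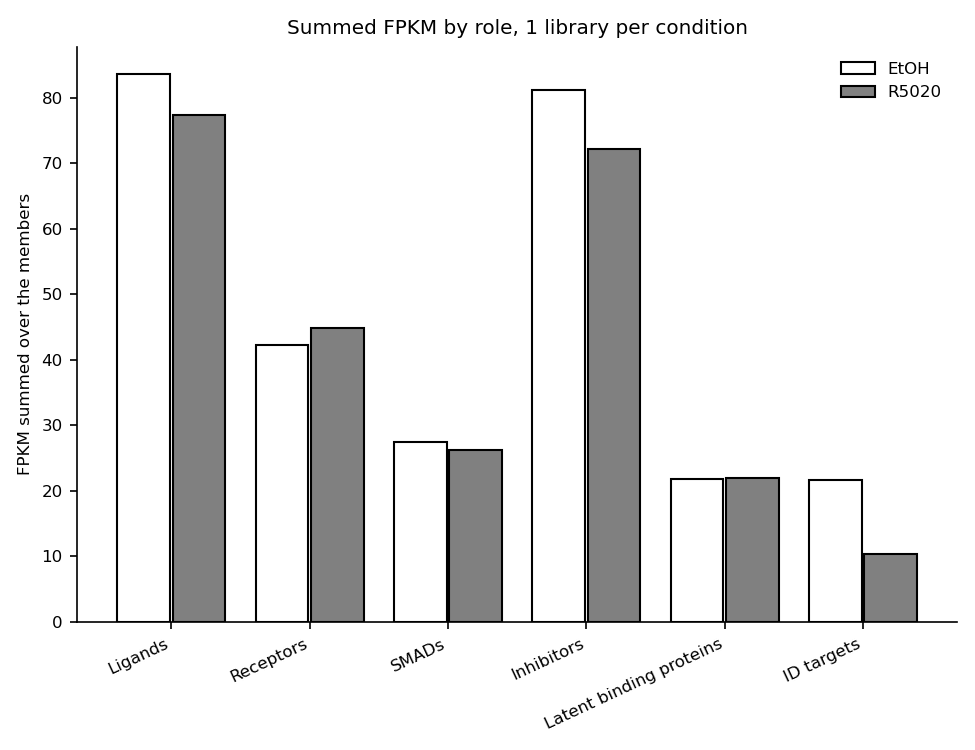
Bars give the FPKM summed over all members of a role, open for EtOH and grey for R5020 (1 library each, no error bars). The *ID* sum was 21.7 in EtOH and 10.3 in R5020, and the other sums differed by less than 0.2 on the log2 scale.

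Receptor transcripts were more even than ligand transcripts. Of the 13 receptors and co-receptors 7 were retained, and 6 of these lay between −0.30 and 0.13 on the log2 scale. *TGFBR1*, the TGF-beta type I receptor, had the highest mean, with an FPKM of 10.9 in EtOH-treated and 12.1 in R5020-treated cells. *BMPR1A*, a BMP type I receptor, had 11.3 and 11.1, and *BMPR2*, its type II partner, had 6.67 and 6.84. The activin receptors *ACVR1B* (type I) and *ACVR2B* (type II) had FPKM of 7.17 and 5.9, and of 1.27 and 1.22, in that order of conditions.

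*ACVR1*, a type I receptor for BMPs and activins also known as ALK2, stood apart from the other receptors. Its FPKM was 1.84 in EtOH-treated and 4.94 in R5020-treated cells, a ratio of 2.69 (2.42 to 2.99). The increase lay at the upstream of its 2 annotated start sites, whose transcript had FPKM of 1.58 and 4.94, while the transcript from the downstream start had 0.259 and 0. *TGFBR2*, the TGF-beta type II receptor that the signal requires, was listed at 0 in EtOH-treated cells and had an FPKM of 0.00981, or 4 approximate reads, in R5020-treated cells. *ACVR2A*, the other activin type II receptor, was at 0 in both. Among the co-receptors, *ENG* (endoglin) had FPKM of 2.35 and 1.72. *TGFBR3* (betaglycan), which presents TGF-beta2 and binds inhibin, had an FPKM of 0.146 in EtOH-treated and 0.764 in R5020-treated cells, 5.23-fold higher (3.99 to 6.96), but did not reach the filter. *BMPR1B* had FPKM of 0.531 and 0.252, and *ACVR1C* and *ACVRL1* were below 0.03 in both libraries.

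Of the 8 SMADs 7 were retained, and only *SMAD6* was called. The 6 receptor-activated and common SMADs together had an FPKM of 23.0 in EtOH-treated and 24.6 in R5020-treated cells, while the inhibitory pair, *SMAD6* and *SMAD7*, had 4.38 and 1.68. The former sum was carried by *SMAD1*, *SMAD2*, *SMAD4* and *SMAD5*, and both *SMAD3* and *SMAD9* within it were lower in R5020-treated cells without a call. *SMAD6*, which blocks BMP receptor signalling, had the largest decrease among the retained members, with an FPKM of 2.49 in EtOH-treated and 0.625 in R5020-treated cells. That was 3.98-fold lower (3.34 to 4.76), on 668 and 158 approximate reads. *SMAD7*, the feedback inhibitor of TGF-beta receptors, had FPKM of 1.90 and 1.05. As a plain ratio it was 1.80-fold lower (1.54 to 2.11). With 1 added to each FPKM its log2 change was −0.50, short of the call.

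*SMAD5*, a BMP effector, had the highest level of the role, with FPKM of 6.54 and 7.83. *SMAD4*, the common partner, had FPKM of 4.53 and 5.54, and *SMAD2* had 5.63 and 5.97. *SMAD3* differed from *SMAD2*, its partner in TGF-beta signalling, in that its FPKM was 1.60 in EtOH-treated and 0.995 in R5020-treated cells, a log2 change of −0.38. As a plain ratio *SMAD3* was 1.61-fold lower (1.44 to 1.79), without a call. *SMAD1* was level as a gene, with FPKM of 4.21 and 4.0, but its 2 start sites moved in opposite directions. The upstream start had FPKM of 1.63 in EtOH-treated and 2.64 in R5020-treated cells, and the downstream start had 2.58 and 1.36. *SMAD9*, the third BMP effector, had FPKM of 0.518 and 0.227 and was not retained.

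**Figure D3:**
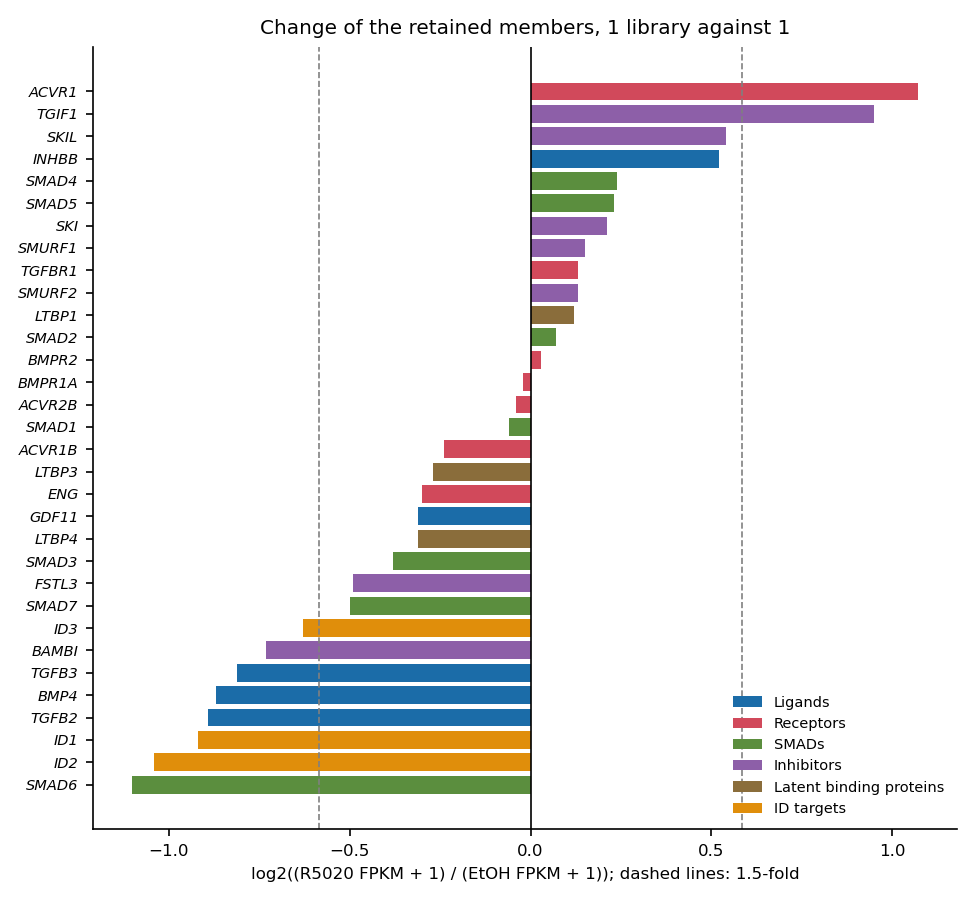
Bars give log2((R5020 FPKM + 1) / (EtOH FPKM + 1)) for the 32 retained members, coloured by role, with dashed lines at 1.5-fold (1 library against 1). *ACVR1* and *TGIF1* pass the upper line, *SKIL* and *INHBB* stop short of it, and 8 members pass the lower line, among them all 3 retained *ID* genes.

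The inhibitors fell into groups by where they act. At the membrane, *BAMBI*, a receptor decoy without a kinase, had the highest FPKM of all members in EtOH-treated cells. Its FPKM was 50.2 in EtOH-treated and 30.0 in R5020-treated cells, 1.68-fold lower (1.62 to 1.74). It made up 61.8% of the inhibitor sum in EtOH-treated and 41.5% in R5020-treated cells. The inhibitor sum was 81.2 and 72.2, a log2 ratio of −0.17, which became 0.44 without *BAMBI*.

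In the nucleus, the 3 corepressors of SMAD complexes had a summed FPKM of 19.8 in EtOH-treated and 30.2 in R5020-treated cells. *TGIF1*, a homeodomain corepressor of SMAD2, had FPKM of 3.41 and 7.49, 2.20-fold higher (1.97 to 2.45) in R5020-treated cells. *SKIL*, which encodes the SnoN protein, had FPKM of 10.7 and 16.0 and a log2 change of 0.54, short of the call. *SKI*, its relative, had 5.71 and 6.76. All 3 were higher in R5020-treated cells, and 1 of them passed 1.5-fold.

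The ubiquitin ligases that target receptors and SMADs were close to level, with FPKM of 2.56 and 2.93 for *SMURF1* and of 6.87 and 7.59 for *SMURF2*. Secreted antagonists were scarce. *FSTL3*, which binds activin, had FPKM of 1.52 and 0.796 and a log2 change of −0.49. *NOG*, which encodes the BMP antagonist noggin, had an FPKM of 0.0553 in EtOH-treated and 0.614 in R5020-treated cells, from 10 and 103 approximate reads. The ratio was 11.1 with an interval from 5.79 to 23.8, and the gene stayed under the filter in both libraries. *CHRD* (chordin), another BMP antagonist, had FPKM of 0.203 and 0.0556, and *FST* (follistatin) had 2 and 3 approximate reads.

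The latent TGF-beta binding proteins tether the inactive ligand to the matrix. *LTBP1* carried most of their transcript, with FPKM of 15.7 and 17.2, and the summed FPKM of the 4 genes was 21.8 in EtOH-treated and 21.9 in R5020-treated cells, a log2 ratio of 0.00. *LTBP3* had 3.92 and 3.08, and *LTBP2* had 0.395 and 0.321. *LTBP4* had FPKM of 1.78 and 1.24. A downstream start held the whole gene in EtOH-treated cells, with 1.78, and 61.6% of it in R5020-treated cells, with 0.761. An upstream start, at 0 in EtOH-treated cells, had 0.475 in R5020-treated cells. Without *LTBP1* the log2 ratio of the sums was −0.40.

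The *ID* genes, which encode helix-loop-helix proteins without a DNA-binding domain and are direct BMP targets, were the most uniform role. *ID1* had an FPKM of 9.17 in EtOH-treated and 4.38 in R5020-treated cells, 2.10-fold lower (1.86 to 2.37). *ID2* had 8.06 and 3.42, 2.36-fold lower (2.10 to 2.64). *ID3* had 4.04 and 2.24, 1.80-fold lower (1.54 to 2.11). All 3 retained *ID* genes were called lower, and *ID4*, with FPKM of 0.452 and 0.270, was below the filter. The *ID* sum was 21.7 in EtOH-treated and 10.3 in R5020-treated cells, a log2 ratio of −1.07.

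Of the members 16 had more than 1 annotated start site. The share of the main start hardly differed in *LTBP1* (68.9% in EtOH-treated and 69.1% in R5020-treated cells), *SMAD2* (80.4% and 79.8%) and *ACVR1B* (79.5% and 74.7%), and other members showed larger differences. *TGIF1* has 7 annotated starts, of which 2 had transcripts. The upstream of these, on chromosome 18 at base 3449973 in hg19, had FPKM of 1.30 in EtOH-treated and 4.87 in R5020-treated cells, and its share of the gene was 38.3% and 65.0%. The downstream one, at base 3450172, had FPKM of 2.10 and 2.62. In *SKIL* the downstream start showed the larger difference. Transcripts from base 170077411 of chromosome 3 had FPKM of 3.74 and 7.79, against 6.97 and 8.19 from base 170075473. In *SMAD7* the downstream start had FPKM of 1.57 and 0.683 and the upstream start 0.324 and 0.372, so the lower gene level came from the former. *BMP4* was read from its upstream start only in EtOH-treated cells, and in R5020-treated cells the downstream start held 10.9% of the gene, or 40 approximate reads. Cufflinks divides reads shared between transcripts by a model, so the split between starts is less certain than the gene sum.

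**Figure D4:**
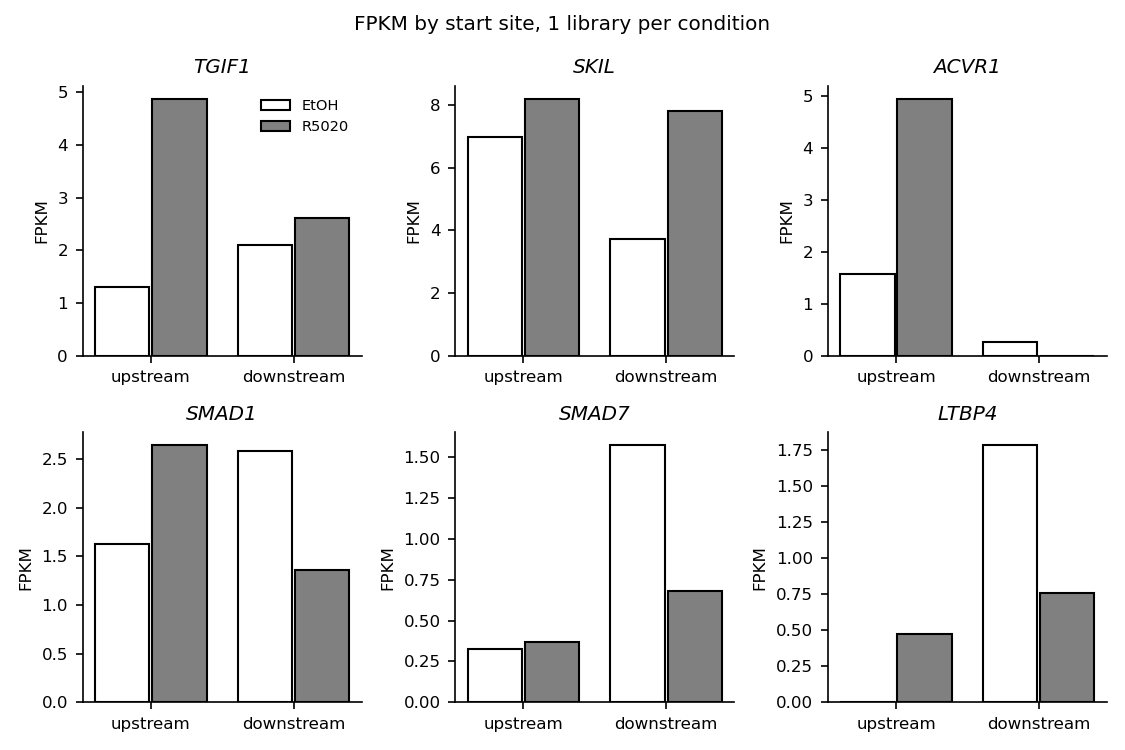
Bars give the FPKM of transcripts from the upstream and the downstream start site in use in 6 genes, open for EtOH and grey for R5020 (1 library each; each panel has its own axis from 0). The upstream start of *TGIF1* and *ACVR1* and the downstream start of *SKIL* held the larger differences, and in *SMAD1* the order of both starts was exchanged.

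The PR ChIP-seq library gave 11181 binding sites. A gene was tied to a site within 50 kb of the extent of its transcripts. Of the 51 members 28 (54.9%) had such a site, where 45.6% of all genes did. Among the 32 retained members 20 (62.5%) had a site, where the share of all retained genes was 52.7%, and among the 19 others 8 (42.1%) had 1, beside 39.2% of all genes that were not retained. A site overlapped 11 members (21.6%), and 17.9% of all genes. The same shares were 28.1% of retained members beside 22.5% of retained genes, and 10.5% of the other members beside 13.7% of the other genes. Members were longer, with a median extent of 45.4 kb compared with 19.5 kb over all genes, and the part of length in these shares was not tested. Of the 8 members called lower 5 (62.5%) had a site, near the 61.0% of all retained genes called lower. Of the 2 called higher 1 did, where the share of all retained genes called higher was 61.4%. *TGFB3*, *BMP4*, *BAMBI* and *ACVR1* had none within 50 kb.

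In all 62 sites lay within 50 kb of a member, each of them near 1 member only. Their MACS score, which is the −log10 of the p-value times 10, ran from 50.2 to 303 with a median of 71.1, and the median of all sites was 74.5. In 35 of the 62 pairs no other gene was nearer to the site. Sites lay within 1 kb of a start in 3 members, *NOG*, *SKIL* and *TGIF1*, and the share of all genes with such a site was not computed. All 3 were higher in R5020-treated cells, but only *TGIF1* was called, with *NOG* below the filter and *SKIL* short of the call. A site of *ACVR2B*, a receptor gene with FPKM of 1.27 and 1.22, lay 1015 bp from its start, just outside this limit. *SKIL* had 2 sites within 1 kb of its first start, with scores of 228.21 and 65.7 and midpoints 431 bp before and 312 bp after it. That start, at base 170075473, had FPKM of 6.97 and 8.19, and the larger difference was at the other start, with 3.74 and 7.79. The *TGIF1* site, score 119.98, had its midpoint 318 bp after the nearest start, in a coding exon of GENCODE release 44. That start, at base 3450172, had FPKM of 2.10 and 2.62, and the larger difference was at the start upstream of it, with 1.30 and 4.87. The upstream start, at base 3449973, also lay within 1 kb of the site, which spans bases 3450299 to 3450682. The *NOG* site, score 79.04, had its midpoint 705 bp before the only annotated start.

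Stretches of 120 bases are printed here from the *SKIL* and *NOG* sites near the start, and from sites inside *SMAD6*, *SMAD3* and *LTBP3* that hold the core of a progesterone response element. The *NOG* stretch is the middle of its site, and the others were placed to hold the core, which in *LTBP3* is at the edge of the site. Each is the + strand of GRCh37 (hg19), 5′ to 3′, with the core ACANNNTGT in capitals where it occurs. The *SKIL* window lies upstream of the RefSeq start of the gene, and 12 of its bases are in an untranslated exon of GENCODE. That of *NOG* also lies upstream of its gene, and those of *SMAD6*, *SMAD3* and *LTBP3* lie inside the gene.
SKIL, chr3:170075022-170075141, score 228.21: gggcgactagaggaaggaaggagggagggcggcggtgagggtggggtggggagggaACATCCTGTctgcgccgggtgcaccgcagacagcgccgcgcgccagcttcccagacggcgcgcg
NOG, chr17:54670295-54670414, score 79.04: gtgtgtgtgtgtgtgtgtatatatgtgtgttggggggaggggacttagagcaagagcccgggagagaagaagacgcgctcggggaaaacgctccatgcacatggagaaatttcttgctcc
SMAD6, chr15:67038141-67038260, score 64.75: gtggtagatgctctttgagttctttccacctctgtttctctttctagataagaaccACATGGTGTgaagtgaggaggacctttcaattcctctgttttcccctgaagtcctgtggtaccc
SMAD3, chr15:67447484-67447603, score 77.02: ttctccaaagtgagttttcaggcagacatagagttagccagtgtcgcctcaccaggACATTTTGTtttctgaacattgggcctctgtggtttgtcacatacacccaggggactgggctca
LTBP3, chr11:65310474-65310593, score 114.94: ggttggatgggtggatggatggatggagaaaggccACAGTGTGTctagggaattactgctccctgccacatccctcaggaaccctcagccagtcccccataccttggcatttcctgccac

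The 13-letter response element GNACANNNTGTNC, searched on both strands, was in 0 of the 62 sites, and 2.40% of all sites held it, against 0.787% of windows of the same length 5 kb before each site. Its core ACANNNTGT, chosen after the longer motif had no match, was in 8 of the 62 (12.9%), compared with 11.6% of all sites and 11.1% of the windows. The half-site TGTTCT, on either strand and allowed to overlap the core, was in 23 (37.1%), compared with 25.2% of all sites and 27.0% of the windows. The windows before the members' own sites held the core in 12.9% and the half-site in 30.6%. The *SKIL*, *SMAD6*, *SMAD3* and *LTBP3* windows above carry 4 of the 8 core matches.

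Sites away from starts were spread over the roles. *SMAD6* had 4 sites, all in introns and with no other gene within 50 kb, at scores from 64.75 to 82.75. *SMAD3* also had 4 intronic sites, at 65.05 to 85.68. The highest score among the members' sites, 303.21, was in an intron of *LTBP3*, where the highest over all sites of the library was 1965. *LTBP3* had 5 sites, and *LTBP2* had 7, of which 6 were in the gene. *ENG* had 6 sites, the strongest (152.19) in a coding exon of the gene and the other 5 nearer to other genes. *LTBP4* had an intronic site of score 77.62 between the upstream start and the downstream start described above. *BMPR1A*, *BMPR1B* and *ACVR2B* had intronic sites with scores from 56.32 to 74.50.

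Among the ligands no site overlapped the RefSeq extent of a gene. *INHBB* had 3 sites, with scores of 78.86, 65.05 and 112.71, and no other gene was nearer to any of them. *BMP7* had 1 of score 65.51 at 23208 bp, also with no gene nearer. The sites of *TGFB1*, *TGFB2*, *GDF11* and *GDF15* had another gene nearer by RefSeq extents, and for *GDF15*, at score 107.64, that was *PGPEP1*. The *TGFB1* sites had their midpoints in a coding exon of *CCDC97*, which is also within an intron of a longer *TGFB1* model of GENCODE. *SMAD2* and *SMAD7* each had 1 site upstream of the gene with no nearer gene, of scores 71.45 and 68.13.

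Of the *ID* genes, *ID2* had a site of score 79.39 with its midpoint 2708 bp before its RefSeq start, in an untranslated exon of a longer *ID2* model of GENCODE, and no other gene was nearer. The sites of *ID1* (2, in an intron of *COX4I2*) and *ID3* (1, at *E2F2*) were over 26 kb from the gene and nearer to others. The sites tied to *ACVR1B*, *CHRD*, *FST* and *SMURF2* had other genes nearer, and *SKI* had 1 such site and 1 just 336 bp past its end with a score of 90.51.

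**Figure D5:**
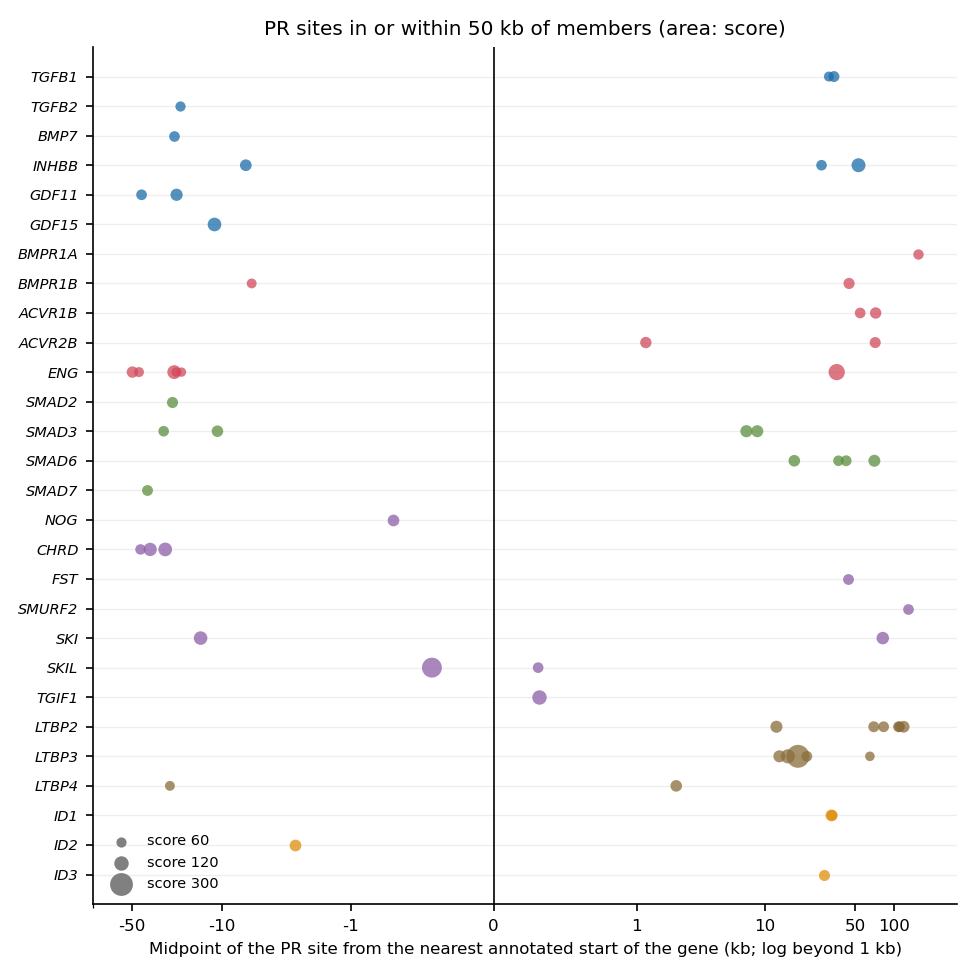
Each point is a PR binding site in or within 50 kb of a member, placed by the distance of its midpoint from the nearest annotated start of the gene (x axis in kb, negative before the start, linear to 1 kb and logarithmic beyond), with the area in proportion to its score. The 4 sites within 1 kb of a start belong to *NOG*, *SKIL* and *TGIF1*, and the largest point, with a score of 303, lies inside *LTBP3*.

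The promoter table of RefSeq (GRCh38.p14) held 45 of the 51 members, all but *ACVRL1*, *BMP2*, *BMP3*, *BMP7*, *NOG* and *SKI*. The 250 bases before the start were searched for SMAD motifs, since *SMAD6*, *BAMBI* and 3 *ID* genes were called lower. Each member entered with 1 promoter, the first listed, which need not be that of a start in use. For *TGIF1* it was chr18:3411759-3412008, away from the 2 starts that had transcripts. The palindrome GTCTAGAC, bound by SMAD3 and SMAD4, was in the promoter of 1 member, *SMAD6*, where it begins 12 bases before the start, and in 0.182% of all promoters. GGCGCC, a BMP-type SMAD motif, was in 13 of the 45 (28.9%) and in 16.4% of all promoters. The shares of all promoters run over every one of the 35116 listed, of retained and other genes alike, and so are not matched to the members. The part of GC content in these shares was not tested. CAGAC or its complement GTCTG was in 16 (35.6%) and in 38% of all promoters. *BAMBI* held 3 copies of GGCGCC and 2 of CAGAC, and *ID1* and *ID2* held neither within this window. Of the other members called lower, *BMP4* held 1 of each, *TGFB2* and *TGFB3* each held 2 of CAGAC, and *ID3* held 1 of CAGAC. The members called higher held such letters too, *ACVR1* with 1 of each and *TGIF1* with 2 of CAGAC. A link of these letters to the changes was not tested. The promoters of *SMAD6* and *BAMBI*, 2 feedback inhibitors called lower, are printed as examples that hold them. They are on the + strand, which is that of both genes, 5′ to 3′ and with all 3 motifs in capitals.
SMAD6, chr15:66701986-66702235: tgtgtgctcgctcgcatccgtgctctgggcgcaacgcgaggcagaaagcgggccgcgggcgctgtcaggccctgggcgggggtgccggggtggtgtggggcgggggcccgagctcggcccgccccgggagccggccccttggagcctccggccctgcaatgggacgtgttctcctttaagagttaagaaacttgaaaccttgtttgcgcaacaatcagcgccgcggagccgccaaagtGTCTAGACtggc
BAMBI, chr10:28677271-28677520: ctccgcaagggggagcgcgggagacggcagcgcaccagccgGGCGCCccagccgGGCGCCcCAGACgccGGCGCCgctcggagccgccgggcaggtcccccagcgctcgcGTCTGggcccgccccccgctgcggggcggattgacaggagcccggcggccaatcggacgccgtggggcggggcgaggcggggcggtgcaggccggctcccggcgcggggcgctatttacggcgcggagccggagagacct

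Of 98 other genes of the pathway on a separate list, 51 were retained, 11 (21.6%) were called higher and 3 (5.88%) lower, beside 7.67% and 4.14% of all retained genes, with a median change of 0.05. The share called lower was thus near that of all genes. The lower genes were all targets. *CDKN2B*, the cell-cycle inhibitor p15 that TGF-beta induces, had FPKM of 7.22 in EtOH-treated and 1.93 in R5020-treated cells. *PMEPA1*, a feedback inhibitor of TGF-beta signalling, had 9.16 and 5.01, and *MSX2*, a BMP target, had 20.5 and 11.0. The other BMP-responsive homeobox genes went the other way, with FPKM of 0.315 and 1.40 for *MSX1* and of 1.11 and 2.29 for *DLX2*. *MYC*, which TGF-beta represses in epithelial cells, had FPKM of 1.53 and 8.31. The remaining targets called higher were *CYR61* (8.84 and 47.6), *TSC22D1* (7.39 and 12.6) and *NET1* (6.53 and 57.7). Upstream of the receptors, *THBS1*, an activator of latent TGF-beta, had FPKM of 11.3 and 50.7, and the integrin subunit *ITGAV* had 10.7 and 17.2. *RGMB*, a BMP co-receptor, had 5.01 and 10.0, *NEDD4L*, a ligase for activated SMADs, had 6.11 and 12.6, and *ZFYVE16*, an endosomal SMAD adaptor, had 6.33 and 12.5.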

How the data were processed

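Of the 4 samples, 3 had processed files, and the input DNA was not analysed here. Per the paper's methods and the file headers, the authors trimmed 50 nt paired reads, aligned them to hg19 with TopHat, kept uniquely mapped reads and ran Cufflinks, and deposited a Cufflinks FPKM, a coverage and a status per RefSeq transcript. The submitters' processing notes name Bowtie 1.1.2, TopHat and Cufflinks. For the PR sites the authors aligned with Bowtie, called peaks with MACS against input DNA on 1 library and deposited the positions with a score (the −log10 of p times 10).

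FPKM were summed by gene symbol, with a pseudocount of 1, a filter at an FPKM of 1 and a threshold of 1.5-fold. FPKM are already scaled to length and library, so no count test was used and depth was approximated as coverage × length / 50 nt. It covers transcripts of every status, and all 106 member transcripts had status OK. Values of every gene rest on 1 library, and the labels do not say how many cultures a library holds. Groups came from the sample labels. Sites were joined to gene extents within 50 kb, annotated at their midpoint with GENCODE release 44 on GRCh37, and their sequences read from that assembly. Motif shares leave out 3 sites on chromosomes without sequence in the assembly used.

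The members, lists and tests were chosen with earlier results of these data known. Named genes are the members past 1.5-fold, the highest of each role, those with a PR site within 50 kb, and other pathway genes past 1.5-fold. The *ACVR1* start sites, *TGFBR3* and members that fell short of the call were added after their values were seen. Alternatives were a pseudocount of 0.1, other filters, 2-fold, rescaling, the highest transcript, transcripts with status OK, other site distances and scores. The procedure was tested on simulated data. Python 3.11.15, pandas 2.3.3, numpy 2.4.6, scipy 1.17.1 and matplotlib 3.10.9 were used.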

Additional observations from a re-analysis of the deposited data

How the results depend on the processing

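Over 74 alternative values no called member changed sign, but the log2 ratio of the inhibitor sum did, and that of the latent binding proteins, 0.00 in the report, turned negative. The count of members called higher was 2, and became 4 with no filter on FPKM, with *NOG* and *TGFBR3* added (3.78% of all genes), and 1 at 2-fold (3.43%). The count called lower was 8, and became 2 at 2-fold (1.31% of all retained genes). It ran from 6 with an FPKM of 1 or more required in both libraries, which drops *TGFB2* and *SMAD6* (2.92%), to 11 with a pseudocount of 0.1, which adds *SMAD3*, *SMAD7* and *FSTL3* while the share of all retained genes rises from 4.14% to 7.14%. Taking only the highest transcript of a gene gave 10 (5.36%). Without the member with the highest mean FPKM the log2 ratio of the summed FPKM became −0.86 for the ligands, −0.18 for the SMADs, 0.44 for the inhibitors (−0.17 with *BAMBI*) and −0.40 for the latent binding proteins, and with the highest transcript it became −0.28 for the inhibitors and −0.08 for the latent binding proteins. Members with a PR site numbered 16 at 10 kb, 33 at 100 kb, 11 with a site overlapping the gene and 8 with a score of 100 or more, beside 28 at 50 kb. These shares were 31.4%, 64.7%, 21.6% and 15.7% of the members, 27.4%, 57.1%, 17.9% and 14.2% of all genes, and 33.0%, 64.3%, 22.5% and 18.1% of retained genes. For the 10 called members, 32 of 40 alternative changes lay within the counting interval. No paired analysis was possible because each condition has 1 library, and for the same reason no replicate could be left out. Members below the FPKM filter had at most 412 approximate reads in a library.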
